A study of Homo sapiens with 12 samples.

Results

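The mitochondrial chromosome carries 37 genes, and their expression was followed across HER2 breast cancer cell lines with and without TWEAK. They were chosen as every gene on the mitochondrial chromosome whose symbol starts with MT-, and all 37 were found among the 62696 gene identifiers of the count tables: 13 mRNAs, 2 rRNAs and 22 tRNAs. The data were gene counts from 12 poly-A selected RNA-seq libraries. SKBR3 and MDA-MB-453, both established human breast cancer lines that the study groups as HER2, each gave 3 untreated libraries and 3 libraries from cells given TWEAK. TWEAK is a cytokine of the TNF family and signals through the receptor Fn14, encoded by TNFRSF12A. According to the labels, cells of every group grew in DMEM with FBS and were then starved in Opti-MEM for 8 h, and the treated cells received 10 ng/ml TWEAK for 48 h with a fresh dose after 24 h. The labels carry this description for the untreated replicates too and do not say how long those were kept. The study's methods call the replicates biological and place the repeats of its cell line work on separate days, without saying whether a replicate number marks a day. Each line stands for 1 cell line only, so the line cannot be told apart from anything else that differed between its libraries and those of the other line.

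Library totals lay between 24773003 and 35208304 counts. The epithelial markers EPCAM, KRT8 and KRT18 and the amplicon genes ERBB2 and GRB7 were counted in every library. ERBB2 averaged 7578 ± 285 CPM (gene counts scaled to the library size, mean ± SD, n = 3) in untreated SKBR3 and 890.5 ± 16.1 in untreated MDA-MB-453. Of the markers of other cell types, PTPRC (leukocytes) and PECAM1 (endothelium) stood at 5 counts or fewer in every library. COL3A1 stood at 2 or fewer, whereas COL1A1 averaged 19.2 ± 1.44 CPM in untreated SKBR3 and 120.3 ± 3.57 in untreated MDA-MB-453. NFKB2, a TWEAK-responsive gene of the non-canonical NF-κB pathway, averaged 67.3 ± 2.92 CPM untreated and 234 ± 16.9 with TWEAK in SKBR3. In MDA-MB-453 it averaged 25.1 ± 0.869 untreated and 80.2 ± 3.96 with TWEAK. Among the mitochondrial genes, TWEAK replicate 2 of SKBR3 and TWEAK replicate 2 of MDA-MB-453 lay away from the other TWEAK replicates of their line. The counts of called mRNAs are given with and without these libraries. Some single values are given with them only, or with a range over libraries left out.

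Mitochondrial DNA is transcribed from both strands as long precursors that run through many genes. The tRNAs lie between most of the mRNAs and rRNAs, and their excision releases the individual transcripts. The mRNAs encode subunits of respiratory complexes I, III, IV and V, which pump protons or use the proton gradient to make ATP. Complex II and all other subunits are encoded in the nucleus, as are the polymerase, the transcription factors and the ribosomal proteins that serve the mitochondrial genome. MT-ND6 and 8 of the tRNAs are encoded on the light strand, and the gene annotation lists them on the minus strand. The other genes are encoded on the heavy strand and are listed on the plus strand. Mature mitochondrial mRNAs other than MT-ND6 carry short poly-A tails, so a poly-A selected library reads how much tailed RNA was present and not transcription as such.

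The poly-A tail also finishes the reading frame of several of these mRNAs. As annotated, the genes of 6 mRNAs end in 1 or 2 bases of a stop codon, T or TA, and the tail supplies the rest. Their last 15 bases are shown 5′ to 3′ on the gene strand (hg38, GENCODE release 44), with the bases after the last whole codon in capitals:
MT-ND1 (chrM:4248-4262): tccccctcaaaccTA
MT-ND2 (chrM:5497-5511): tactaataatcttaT
MT-CO3 (chrM:9976-9990): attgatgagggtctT
MT-ND3 (chrM:10390-10404): tagactgaaccgaaT
MT-ND4 (chrM:12123-12137): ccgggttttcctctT
MT-CYB (chrM:15873-15887): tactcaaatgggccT
The genes of the other 7 mRNAs end, as annotated, in a whole codon. For MT-ATP6, the last base of that codon is also the first base of MT-CO3. Examples are MT-CO2, which ends in TAG, and MT-CO1, which ends in AGA, a codon that mitochondria do not read as arginine. MT-ND6, the mRNA from the other strand, ends in AGG, which is likewise not read as arginine. The last codon is in capitals:
MT-CO2 (chrM:8255-8269): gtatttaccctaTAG
MT-CO1 (chrM:7431-7445): tacataaaatctAGA
MT-ND6 (chrM:14149-14163, minus strand): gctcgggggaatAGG

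Genes on the same strand overlap in 3 places among the mRNAs, so some reads fit more than 1 gene, and how such reads were counted is not given in the sources used here. MT-ATP8 and MT-ATP6 share 46 bases, MT-ND4L and MT-ND4 share 7 bases, and MT-ATP6 and MT-CO3 share 1 base. The overlaps are shown in capitals with 12 bases on each side, on the plus strand of hg38:
MT-ATP8/MT-ATP6 (chrM:8515-8584): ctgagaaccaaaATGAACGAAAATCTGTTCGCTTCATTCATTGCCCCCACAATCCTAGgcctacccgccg
MT-ND4L/MT-ND4 (chrM:10748-10778): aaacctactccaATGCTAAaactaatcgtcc
MT-ATP6/MT-CO3 (chrM:9195-9219): cgacaacacataAtgacccaccaat
The first 2 of these pairs are known as bicistronic mRNAs, in which 1 RNA molecule carries both reading frames. Each pair therefore gave 2 counts for what can be the same RNA.

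Nuclear chromosomes hold old copies of mitochondrial DNA, which can take reads from the mitochondrial genes or lend reads to them. Over the mitochondrial chromosome, 9.32% of all 100-base windows had an exact copy on chromosomes 1 to 22, X or Y of hg38. The share of such windows was 27.9% in MT-CO1, 26.1% in MT-ND2, 21.2% in MT-RNR1, 11.9% in MT-ATP6, 11.0% in MT-ND1, 4.67% in MT-CO3 and 2.39% in MT-CO2, and it was 0 in the other mRNAs and in MT-RNR2. The nuclear copy with the most counts was MTATP6P1 (chr1:633696-634376, plus strand), which matches MT-ATP6 at 98.53% of its 681 bases. The first 60 bases of the gene (positions counted from 1 at its 5′ end) differ at 1 base, G19A, shown in capitals:
MT-ATP6 (chrM:8527-8586): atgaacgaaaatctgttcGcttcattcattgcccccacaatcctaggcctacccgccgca
MTATP6P1 (chr1:633696-633755): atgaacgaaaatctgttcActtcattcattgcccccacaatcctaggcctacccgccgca

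The 37 genes took a smaller share of all gene counts in SKBR3 than in MDA-MB-453, and the treated and untreated shares overlapped in both lines. In untreated SKBR3 the share was 4.07, 4.02 and 4.09% in replicates 1, 2 and 3. In untreated MDA-MB-453 it was 7.38, 7.44 and 7.95%. Every untreated SKBR3 library lay below every untreated MDA-MB-453 library, and the group means were 4.06 ± 0.0326% and 7.59 ± 0.317% (SD, n = 3 each). The ratio of the means was 0.535 (exact permutation test, two-sided, p = 0.1, the smallest value that 3 against 3 libraries allow). After TWEAK the share was 4.03, 4.02 and 4.30% in SKBR3 (mean 4.12 ± 0.160%) and 7.02, 7.73 and 7.20% in MDA-MB-453 (mean 7.32 ± 0.368%). The treated and untreated libraries overlapped in both lines, with exact permutation p of 0.900 in SKBR3 and 0.400 in MDA-MB-453 (n = 3 against 3). In MDA-MB-453 the overlap came from TWEAK replicate 2: the other treated shares lay below every untreated one, and the log2 ratio of treated to untreated was -0.094 without that library and -0.053 with it. In SKBR3 the log2 ratio was 0.020, 0.036 when TWEAK replicate 2 was left out and -0.013 when replicate 3 was. The exact binomial 95% interval of a library's share was at most 0.0207 percentage points wide and covers counting error only.

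Most of these counts were mRNA. The 13 mRNAs made up 3.63 ± 0.0350% of all counts in untreated SKBR3 and 6.69 ± 0.289% in untreated MDA-MB-453. The 2 rRNAs made up 0.427 ± 0.00814% and 0.898 ± 0.0392%, and the 22 tRNAs 0.00150 ± 9.93e-05% and 0.00157 ± 9.83e-05%. Of the classes, the rRNAs were the one whose treated and untreated shares were apart in SKBR3. Their share there was 0.418, 0.432 and 0.432% in the untreated replicates and 0.477, 0.488 and 0.476% in the TWEAK-treated ones, with every treated library above every untreated one (exact permutation p = 0.1, the smallest possible with n = 3 against 3). In MDA-MB-453 the rRNA share was 0.903, 0.856 and 0.934% untreated and 0.959, 0.908 and 0.940% with TWEAK, with overlapping groups (exact permutation p = 0.200, n = 3 against 3). There too the overlap came from TWEAK replicate 2, and the other treated libraries lay above every untreated one.

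**Figure D1:**
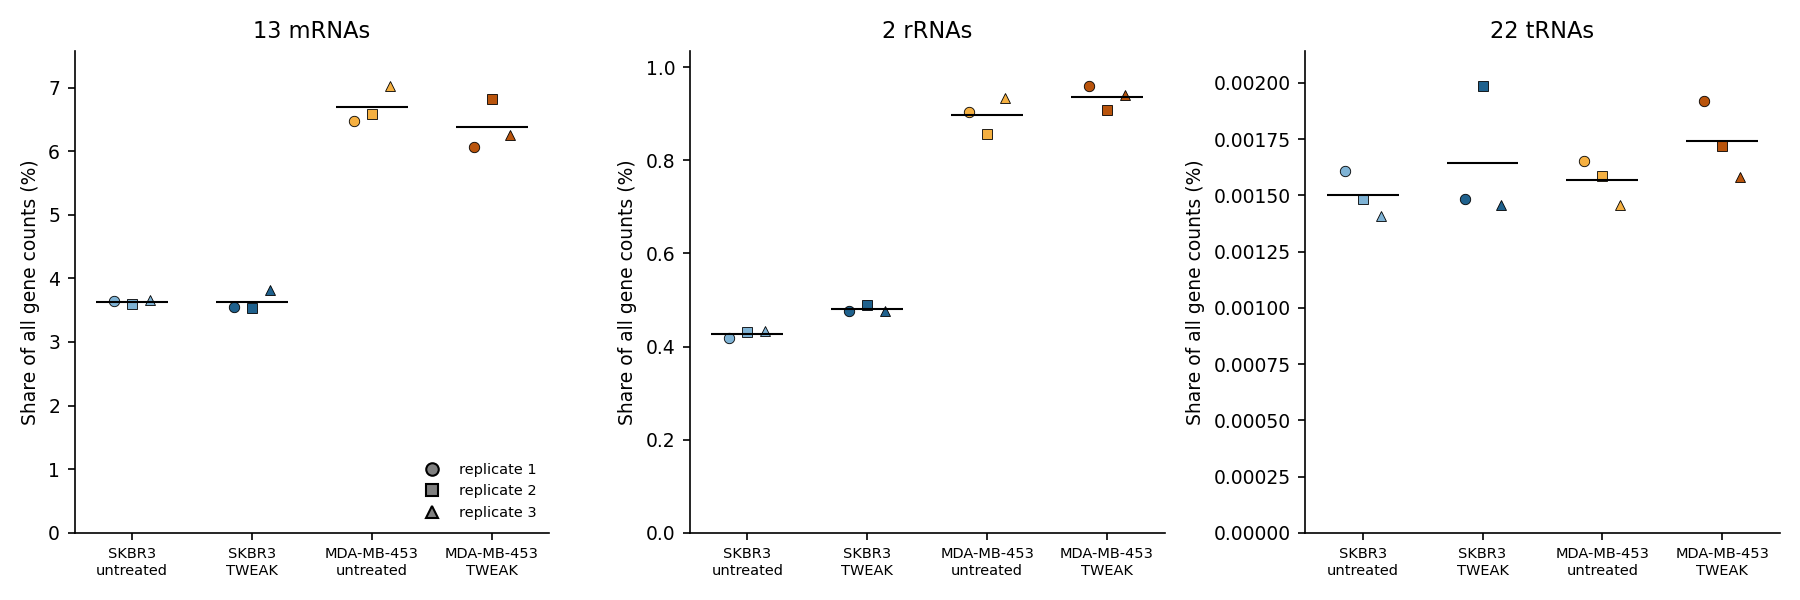
Share of all gene counts (y axis, %) taken by the 13 mRNAs, the 2 rRNAs and the 22 tRNAs in each library of the 4 groups (x axis). Symbols mark the replicate, horizontal lines the group means. The mRNA and rRNA shares of SKBR3 lie below all those of MDA-MB-453, whereas the tRNA shares of the 4 groups overlap.

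Per kilobase of gene, the transcripts of the mitochondrial genome spanned more than an order of magnitude. Neighbours in this order are called level where their ranges of mean ± SD overlapped. In untreated SKBR3, MT-CO2 (complex IV) stood at 7354 ± 173 CPM per kilobase and MT-ND4 (complex I) at 7252 ± 156, and these were level. MT-ATP6 followed at 4565 ± 164, then MT-CO1 at 3933 ± 43.2 and MT-ND4L at 3638 ± 199. MT-CO3 (2470.2 ± 105) and MT-RNR2, the large rRNA (2427 ± 47.5), were level, as were MT-ND5 (1986 ± 65.1) and MT-ATP8 (1899 ± 93.7). The lowest levels were those of MT-ND3 (1216 ± 16.2), MT-RNR1, the small rRNA (659 ± 25.9), and MT-ND6 (138 ± 2.99). MT-ND6 was the lowest of the 15 mRNAs and rRNAs in all 4 groups and MT-CO2 the highest, although in both SKBR3 groups MT-CO2 was level with MT-ND4. For MT-ND6, which lies opposite the heavy-strand precursor and carries little or no tail, the methods and the labels name different library kits and the strand setting of the counting is not known, so its counts in every comparison may include reads of the opposite strand.

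The order differed between the lines in its upper part. In untreated MDA-MB-453, MT-CO1 ranked second at 9415 ± 364 CPM per kilobase, followed by MT-ND4 (8797 ± 467), MT-ATP6 (8057 ± 466) and MT-CO3 (7754 ± 301), and each of these 4 was level with the next. MT-CO2 stood above them at 11109 ± 581. MT-CO3, sixth in untreated SKBR3, thus lay beside MT-ATP6, the gene it adjoins, in MDA-MB-453. The rRNA levels came after poly-A selection and say nothing of the total amount of mitochondrial ribosomes.

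**Figure D2:**
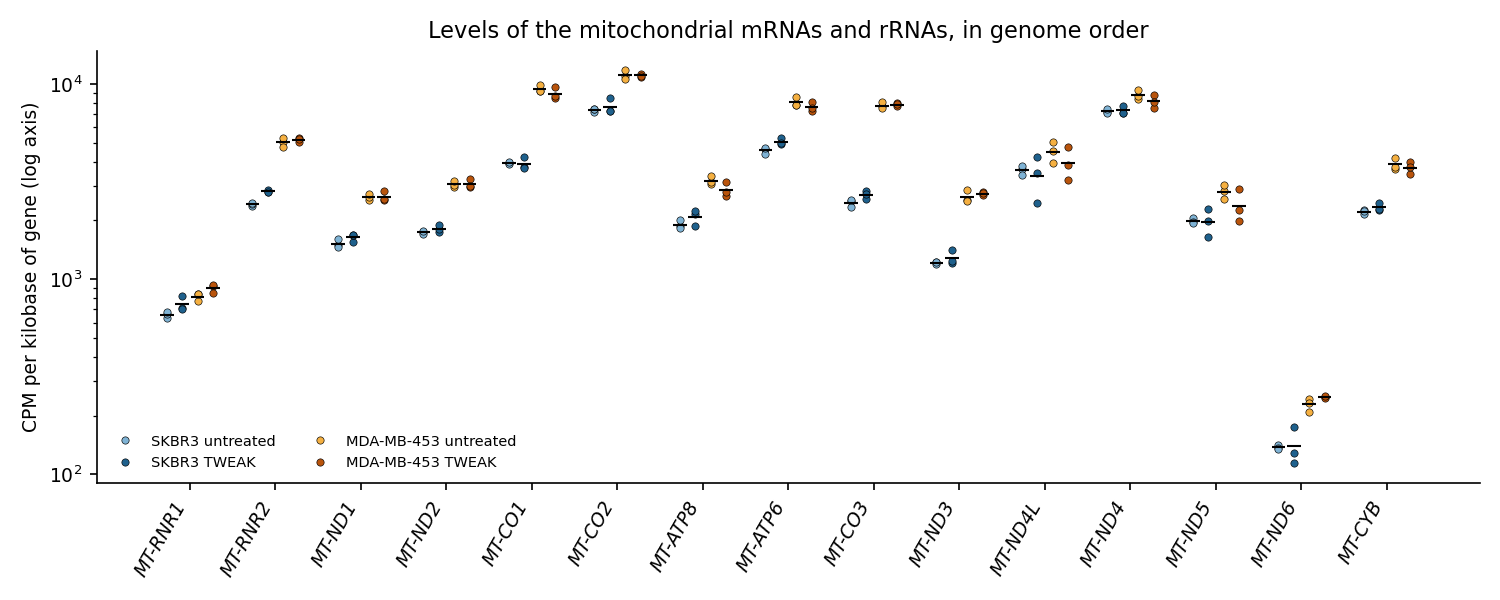
Level of each of the 13 mRNAs and 2 rRNAs (y axis, CPM per kilobase of gene, log axis) in every library, with genes in genome order (x axis), 1 colour per group and lines for group means. MT-CO3 and MT-CO1 show the widest gaps between the lines, and MT-ND4, MT-ND4L and MT-RNR1 the narrowest.

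Between the untreated lines, every mitochondrial mRNA and both rRNAs were lower in SKBR3. In the edgeR test, 13 of 13 mRNAs passed the threshold (adjusted p of at most 0.1) and 13 were lower in SKBR3, beside 87.2% of all 16315 genes tested that passed, 44.8% higher and 42.4% lower. The groups of libraries did not overlap for 13 of 13 mRNAs, beside 85.3% of all genes. The median log2 fold change of the 13 mRNAs was -0.79 (SKBR3 relative to MDA-MB-453), beside 0.028 over all genes. All 13 stayed lower and past the threshold in each of the alternatives run. With most genes differing between these lines, the count itself is near the background for called genes, and the shared direction is given as a description.

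Complex IV, the oxidase that passes electrons to oxygen, held the widest differences. MT-CO3 stood at 1970.2, 1843 and 1997 CPM in the 3 untreated SKBR3 replicates and at 6021, 5877 and 6339 in those of MDA-MB-453. The highest SKBR3 value was far below the lowest MDA-MB-453 value, and the fitted level was 3.13-fold lower in SKBR3 (log2 fold change -1.64, SE 0.041, edgeR adjusted p = 9.35e-23). MT-CO1, the catalytic subunit, stood at 6075, 5993 and 6125 CPM in SKBR3 against 14128, 14265 and 15161 in MDA-MB-453. It was 2.38-fold lower in SKBR3 (log2 fold change -1.25, SE 0.038, adjusted p = 6.58e-21). MT-CO2, which takes up electrons from cytochrome c, differed less. It stood at 4896, 5074 and 5119.9 CPM in SKBR3 against 7522, 7245 and 8029 in MDA-MB-453, with a log2 fold change of -0.59 (SE 0.040, adjusted p = 2.72e-13).

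Among the 7 mRNAs of complex I, the entry point for electrons from NADH, the differences were graded. MT-ND3 stood at 422, 415 and 426 CPM in untreated SKBR3 and 884, 871 and 993 in untreated MDA-MB-453, a log2 fold change of -1.12 (SE 0.043). MT-ND2, MT-ND1 and MT-ND6 followed at -0.81, -0.79 and -0.72 on the log2 scale, and MT-ND5 at -0.50. The narrowest differences of all mRNAs belonged to the bicistronic pair. MT-ND4L stood at 1096, 1130.5 and 1015 CPM in SKBR3 against 1166, 1348 and 1504 in MDA-MB-453 (log2 fold change -0.30, SE 0.057, adjusted p = 2.56e-05). MT-ND4 stood at 9942, 9809.9 and 10229 CPM and 11554, 11992 and 12822 (log2 fold change -0.27, SE 0.040, adjusted p = 6.56e-07). For both genes the untreated groups were apart, by a small gap.

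The remaining mRNAs lay between these extremes. MT-CYB, the only mitochondrially encoded subunit of complex III, stood at 2567, 2476 and 2555 CPM in untreated SKBR3 and 4191, 4296 and 4772 in untreated MDA-MB-453 (log2 fold change -0.80, SE 0.042). Of the ATP synthase subunits, MT-ATP6 forms part of the proton channel and MT-ATP8 helps hold the complex together. Their log2 fold changes were -0.81 (SE 0.042) and -0.75 (SE 0.042), so the overlapping genes differed by similar amounts, while MT-CO3, next to MT-ATP6 on the chromosome, differed by -1.64. The counts of MT-CO3 per 100 counts of MT-ATP6 were 62.3, 61.8 and 62.7 in untreated SKBR3 and 114, 111 and 108 in untreated MDA-MB-453.

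The rRNAs, which are made from the same strand ahead of the mRNAs, also differed from each other. MT-RNR2 stood at 3701, 3806 and 3844 CPM in untreated SKBR3 and 7819, 7428 and 8210.2 in untreated MDA-MB-453, a log2 fold change of -1.04 (SE 0.040, adjusted p = 9.64e-19). MT-RNR1 stood at 602, 634 and 651 and 799, 737 and 798 CPM, a log2 fold change of -0.30 (SE 0.040, adjusted p = 1.53e-07). Counts of MT-RNR2 per count of MT-RNR1 were thus 5.91 to 6.15 in untreated SKBR3 and 9.79 to 10.3 in untreated MDA-MB-453.

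These differences changed the make-up of the mitochondrial mRNA pool. Complex I mRNAs held 49.1 ± 0.130% of the counts of the 13 mRNAs in untreated SKBR3 and 39.5 ± 0.648% in untreated MDA-MB-453 (SD, n = 3). Complex IV mRNAs held 34.8 ± 0.271% and 44.03 ± 0.695%. The shares of complex III (6.75 ± 0.0684% and 6.89 ± 0.138%) and complex V (9.34 ± 0.129% and 9.60 ± 0.0958%) lay close together. MT-ND4 alone held 26.7% of the pool in untreated SKBR3 and 18.9% in untreated MDA-MB-453, whereas MT-CO1 held 16.2% and 22.7%. These shares are of counts and depend on gene length, so they are compared between lines and not between genes.

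The TWEAK-treated libraries, which the test above did not use, extend the comparison. Over all 6 libraries of each line, 10 of 13 mRNAs and MT-RNR2 were lower in every SKBR3 library than in any MDA-MB-453 library, beside 72.3% of the 17201 genes tested over the 12 libraries whose lines did not overlap. MT-ND4, MT-ND4L and MT-ND5 overlapped between the lines, and so did MT-RNR1. For MT-ND4, the highest SKBR3 library stood at 10648 CPM and the lowest MDA-MB-453 library at 10411.

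The nuclear-encoded partners of the same complexes were called in both directions, read beside 44.8% higher and 42.4% lower over all genes and a median of 0.028. Of complex I, 24 higher and 11 lower of 37 tested passed the threshold, with a median log2 fold change of 0.29 beside -0.72 for the 7 mitochondrial mRNAs. The accessory subunits NDUFB9 and NDUFA5 were higher in SKBR3, at 3.48 (SE 0.045) and 1.68 (SE 0.042) on the log2 scale. NDUFV2, which carries an iron-sulphur cluster, and NDUFB1 were lower, at -1.08 (SE 0.18) and -0.95 (SE 0.049). Of complex II, which has no mitochondrial gene, 3 higher and 0 lower of 4 tested passed (median 0.43). Its flavoprotein SDHA differed by 0.82 (SE 0.059) and its iron-sulphur subunit SDHB by 0.53 (SE 0.042).

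In complex III, 5 higher and 3 lower of 9 tested passed the threshold with a median log2 fold change of 0.25 beside -0.80 for MT-CYB. UQCRH and UQCRC2 were higher in SKBR3, at 0.64 (SE 0.039) and 0.58 (SE 0.037), and UQCRB and UQCRQ were lower, at -2.08 (SE 0.047) and -0.66 (SE 0.049). In complex IV, 9 higher and 2 lower of 11 tested passed, and the median was 0.43 beside -1.25 for MT-CO1, MT-CO2 and MT-CO3. NDUFA4 and COX5A, both subunits of this oxidase, were higher by 1.66 (SE 0.041) and 1.48 (SE 0.047), while COX6A1 and COX8A were lower, at -0.44 (SE 0.054) and -0.18 (SE 0.088). In ATP synthase, 11 higher and 5 lower of 17 tested passed (median 0.33 beside -0.78 for MT-ATP6 and MT-ATP8). ATP5MF and the catalytic subunit ATP5F1B were higher in SKBR3, at 2.45 (SE 0.057) and 0.98 (SE 0.035), and ATP5PD and the catalytic partner ATP5F1A were lower, at -1.55 (SE 0.040) and -0.61 (SE 0.036). The counts called in each direction were the same in all these lists with size factors from DESeq2 in edgeR and with scaling factors computed without the mitochondrial genes. The lists were compared with the mitochondrial mRNAs as counts and medians only, and no test of the difference was made.

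**Figure D3:**
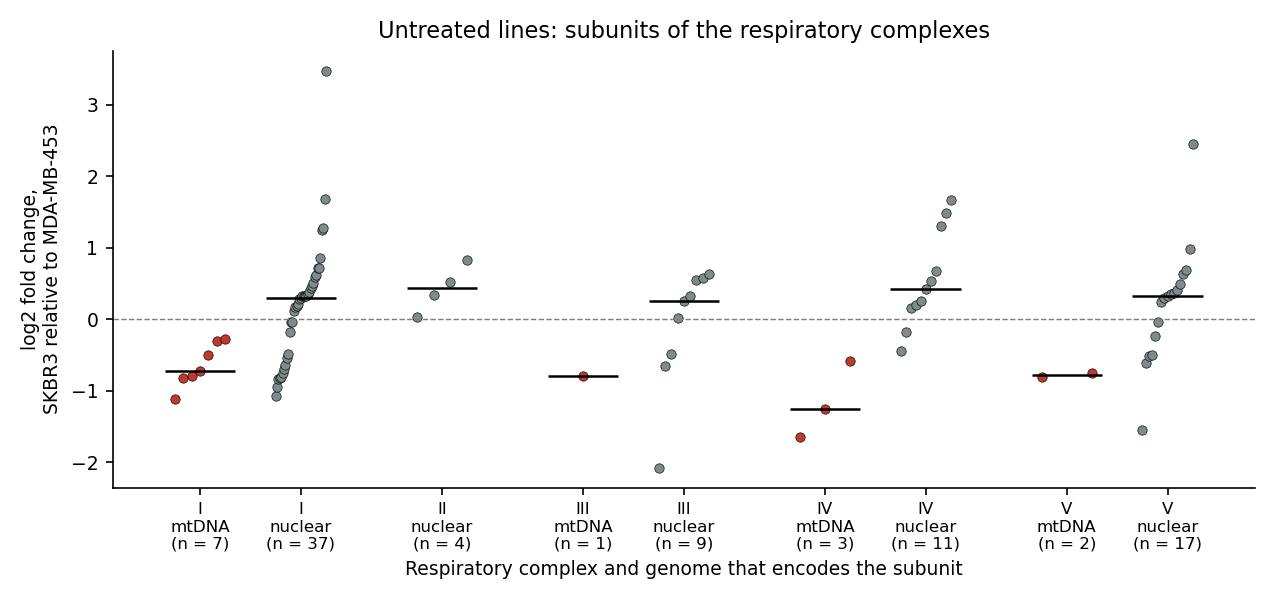
Fitted log2 fold changes of respiratory complex subunits between the untreated lines (y axis, SKBR3 relative to MDA-MB-453) by complex and by the genome that encodes them (x axis). Points are genes that were tested and lines are medians. All 13 mitochondrially encoded subunits lie below 0, whereas the nuclear-encoded subunits of each complex have medians above 0.

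Nuclear genes that express and maintain the mitochondrial genome were called in both directions, against the same shares over all genes. Of the 5 genes for its transcription, 3 were higher in SKBR3 and 1 lower. MTERF1, which binds and terminates transcription within the mitochondrial genome, was higher by 1.21 (SE 0.089), and the elongation factor TEFM by 0.51 (SE 0.080). The transcription factor TFB2M was lower, at -0.82 (SE 0.055). TFAM, which packages and bends mitochondrial DNA at its promoters, and the polymerase POLRMT are added here after their values were seen. TFAM differed by 0.35 (SE 0.043) and passed the threshold, and POLRMT differed by 0.0080 (SE 0.049) and did not.

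Of the genes for replication and the nucleoid, 1 higher and 5 lower of 11 tested passed (median -0.076). PRIMPOL, a primase-polymerase, and the DNA ligase LIG3 were lower, at -2.57 (SE 0.12) and -1.10 (SE 0.045), and RNASEH1, which removes RNA from RNA-DNA hybrids, was higher by 0.72 (SE 0.060). Of the genes for RNA processing and turnover, 13 higher and 6 lower of 21 tested passed (median 0.18). TBRG4 and the helicase SUPV3L1, part of the machinery that degrades mitochondrial RNA, were higher by 1.56 (SE 0.040) and 1.22 (SE 0.052). DDX28 and MTPAP, the poly-A polymerase that adds the tails on which this library type depends, were lower, at -0.90 (SE 0.075) and -0.51 (SE 0.059). Of the mitochondrial ribosomal proteins, 48 higher and 24 lower of 81 tested passed (median 0.27), from MRPL58 at -1.85 (SE 0.053) to MRPL13 at 2.59 (SE 0.041), with MRPL27 at -1.61 (SE 0.059) and MRPS28 at 2.56 (SE 0.074).

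Among the regulators of mitochondrial biogenesis, 4 higher and 3 lower of 7 tested passed. The nuclear receptor ESRRA and the coactivator PPARGC1B were higher in SKBR3, at 1.47 (SE 0.046) and 1.45 (SE 0.057), while GABPB1 and PPRC1 were lower, at -0.83 (SE 0.053) and -0.53 (SE 0.046). Among the genes of the mitochondrial stress response, 7 higher and 10 lower of 19 tested passed. PSAT1, an enzyme of serine synthesis, averaged 66.8 ± 4.73 CPM in untreated SKBR3 and had 2 counts or fewer in each untreated MDA-MB-453 library. The asparagine synthetase gene ASNS was higher in SKBR3, at 1.64 (SE 0.21), and the transcription factor ATF5 and SESN2 lower, at -1.66 (SE 0.047) and -1.48 (SE 0.073). The part of any of these nuclear genes in the levels of the mitochondrial transcripts was not tested.

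In SKBR3, TWEAK was followed by a rise of the large rRNA and by no called change of any mitochondrial mRNA. MT-RNR2 stood at 3701, 3806 and 3844 CPM in the untreated replicates and at 4349, 4457 and 4366 in the TWEAK-treated ones. All treated libraries lay above all untreated ones. The change was 1.16-fold (log2 fold change 0.21, SE 0.054, edgeR adjusted p = 0.0403), in a line where 10.4% of the 15661 genes tested passed the threshold, 6.6% higher and 3.82% lower. The call was lost when untreated replicate 1 (adjusted p = 0.220), untreated replicate 2 (0.184) or TWEAK replicate 1 (0.114) was left out, and with the replicate number as a block, which compares libraries of the same number (0.156). Over the alternatives the adjusted p ranged from 0.000699 to 0.220 and the log2 fold change from 0.19 to 0.23, and DESeq2 gave an adjusted p of 0.00695. MT-RNR1 stood at 602, 634 and 651 CPM untreated and 681, 783 and 671 with TWEAK. Its groups did not overlap either, but its log2 fold change of 0.17 (SE 0.072, adjusted p = 0.209) did not pass. It passed in a fit of all 12 libraries (adjusted p = 0.0771). Leaving out single libraries moved its log2 fold change between 0.10 and 0.22, and over the alternatives its adjusted p reached 0.544.

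Of the 13 mRNAs in SKBR3, 0 passed the threshold in edgeR and 0 in DESeq2, and 1 had an unadjusted p under 0.05. The median log2 fold change was 0.054, beside -0.0074 over all genes tested. The groups did not overlap for 3 mRNAs, all with higher treated values, beside 26.5% of all genes. These were MT-ATP6, MT-CO3 and MT-CYB. MT-ATP6 stood at 3160.2, 2980.3 and 3186 CPM untreated and 3353, 3605 and 3407 with TWEAK (log2 fold change 0.15, SE 0.060, adjusted p = 0.199). It passed in a fit of all 12 libraries (adjusted p = 0.0845), for which the share of all genes called is not given here.

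By complex, the 95% intervals of the SKBR3 changes ran on both sides of 0 for all mRNAs but MT-ATP6. In complex IV the interval was -0.16 to 0.12 on the log2 scale for MT-CO1, -0.11 to 0.21 for MT-CO2 and -0.011 to 0.26 for MT-CO3. In complex III it was -0.058 to 0.19 for MT-CYB, and in complex V -0.033 to 0.29 for MT-ATP8 and 0.015 to 0.28 for MT-ATP6. The ATP synthase mRNAs thus lay mainly on the positive side of 0, as did other mRNAs such as MT-CO3 and MT-ND1. Complex I had the narrowest interval for MT-ND2, at -0.071 to 0.18, and wide ones for MT-ND4L (-0.43 to 0.22), MT-ND6 (-0.28 to 0.30) and MT-ND5 (-0.23 to 0.20). MT-ND1, MT-ND3 and MT-ND4 had intervals of -0.025 to 0.25, -0.077 to 0.23 and -0.12 to 0.14. A change of the size of the line difference in MT-CO1 or MT-CO3 lay outside all these intervals.

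For MT-ND4L, MT-ND5 and MT-ND6 the treated SKBR3 libraries spread widely. MT-ND4L stood at 1045, 734 and 1248 CPM in TWEAK replicates 1, 2 and 3 of SKBR3, MT-ND5 at 3619, 2987 and 4129, and MT-ND6 at 59.9, 92.1 and 67.5. Replicate 2 was the lowest for MT-ND4L and MT-ND5 and the highest for MT-ND6, and replicate 3 was the highest for MT-ND4L and MT-ND5. Replicate 2 held 7.50 counts of MT-ND4L per 100 of MT-ND4, against 10.6 and 11.7 in the other treated libraries and 9.92 to 11.5 in the untreated ones, although both reading frames lie on 1 RNA. Without that library, 3 of 13 mRNAs passed the threshold, beside 17.4% of all genes tested in that fit, 9.93% higher and 7.45% lower. MT-ATP8 was higher (log2 fold change 0.20, adjusted p = 0.00210), as was MT-ATP6 (0.12, adjusted p = 0.0706), and MT-ND6 was lower (-0.19, adjusted p = 0.0285). With TWEAK replicate 2 included, MT-ND6 had a log2 fold change of 0.011 (SE 0.13). What set that library apart was not tested.

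**Figure D4:**
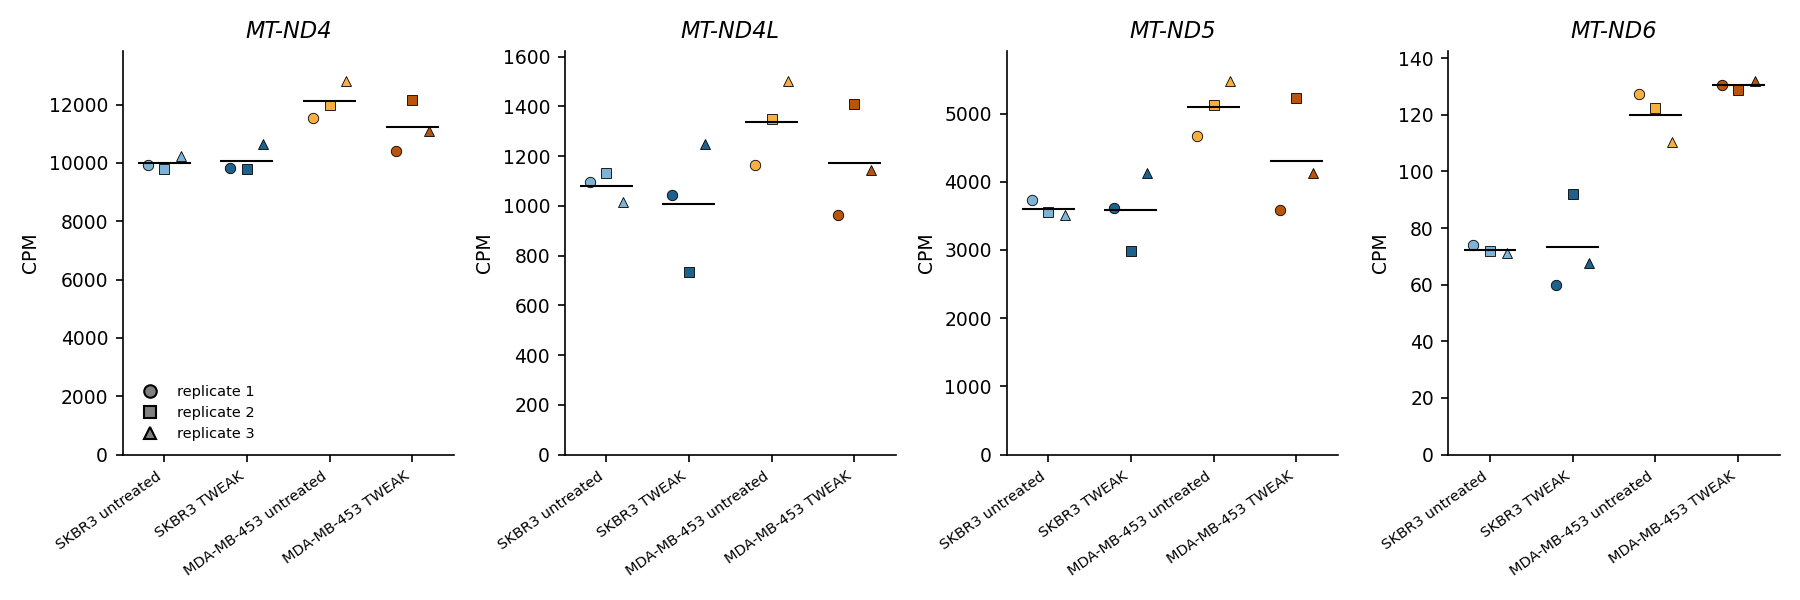
Level (y axis, CPM, starting at 0) of MT-ND4, MT-ND4L, MT-ND5 and MT-ND6 in each library of the 4 groups (x axis), with symbols for the replicate and lines for group means. TWEAK replicate 2 of SKBR3 is low for MT-ND4L and MT-ND5 and high for MT-ND6, and TWEAK replicates 1 and 3 of MDA-MB-453 lie below the untreated replicates for MT-ND5.

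In MDA-MB-453, TWEAK was followed by no called change of any mitochondrial mRNA or rRNA in the test without a block. With the replicate number as a block, 5 mRNAs passed, 4 lower and 1 higher, beside 5.99% of all genes, and so did MT-RNR1. Without the block, 0 of the 13 mRNAs passed in edgeR and 0 in DESeq2, beside 1.49% of the 14929 genes tested in that line that passed, 1.29% higher and 0.208% lower, and 3 had an unadjusted p under 0.05. The median log2 fold change was -0.056, beside 0.0016 over all genes. MT-ND6 was the only mRNA whose groups did not overlap, beside 15.1% of all genes. It stood at 128, 122 and 110.3 CPM untreated and 130.4, 129 and 132 with TWEAK (log2 fold change 0.12, SE 0.049, adjusted p = 0.400). Leaving out single libraries moved that change between 0.061 and 0.17.

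Several complex I mRNAs spread widely among the treated MDA-MB-453 libraries. MT-ND5 stood at 4667, 5129.7 and 5481 CPM untreated and at 3583, 5225 and 4121 with TWEAK. Replicate 2 lay within the untreated range, while replicates 1 and 3 lay below it. Its log2 fold change was -0.24 (SE 0.10, 95% interval -0.45 to -0.027, adjusted p = 0.408). MT-ND4L, on the bicistronic RNA with MT-ND4, stood at 1166, 1348 and 1504 CPM untreated and 962, 1409.9 and 1146 with TWEAK, with the same order among the treated libraries (log2 fold change -0.19, SE 0.11, adjusted p = 0.565). MT-ND4 had 11554, 11992 and 12822 CPM untreated and 10411, 12159 and 11091 with TWEAK (log2 fold change -0.11, SE 0.053, adjusted p = 0.485). MT-ND1, MT-ND2 and MT-ND3 had intervals of -0.088 to 0.10, -0.080 to 0.10 and -0.047 to 0.15, on both sides of 0.

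In the other complexes, MT-ATP8 was the only mRNA with an interval that left out 0 in MDA-MB-453. MT-CO1, MT-CO2 and MT-CO3 had log2 fold changes of -0.079, -0.0074 and 0.018, with 95% intervals of -0.18 to 0.023, -0.092 to 0.077 and -0.061 to 0.10. MT-CYB was at -0.056 (-0.17 to 0.063). MT-ATP6 was at -0.076 (-0.18 to 0.027) and MT-ATP8 at -0.15 (-0.28 to -0.029, adjusted p = 0.354). The rRNAs lay on the positive side. MT-RNR1 stood at 799, 737 and 798 CPM untreated and 882, 806 and 888 with TWEAK, without overlap (log2 fold change 0.14, SE 0.045, adjusted p = 0.247). It passed with no filter on low counts (adjusted p = 0.0110). MT-RNR2 had a log2 fold change of 0.049 (SE 0.040, adjusted p = 0.692), which ranged from 0.013 to 0.085 when single libraries were left out.

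Of the 6 libraries of MDA-MB-453, TWEAK replicate 2 was the one whose omission changed the count. Without that library, 8 of 13 mRNAs passed the threshold, 7 lower and 1 higher, beside 13.8% of the 15216 genes tested in that fit, 6.59% higher and 7.22% lower. The lower ones were MT-ND5 (-0.41 on the log2 scale, adjusted p = 1.43e-06), MT-ND4L (-0.35), MT-ATP8 (-0.23), MT-ND4 (-0.18), MT-CO1 (-0.14), MT-ATP6 (-0.12) and MT-CYB (-0.11). MT-ND6 was higher (0.13, adjusted p = 0.0804), and so was MT-RNR1 (0.18, adjusted p = 0.000956). Leaving out any other single library of the line left 0 mRNAs called. With no filter on low counts, 4 mRNAs passed, all lower, beside 1.45% of the 33154 genes of that fit: MT-ND5, MT-ND4L, MT-ATP8 and MT-ND4.

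**Figure D5:**
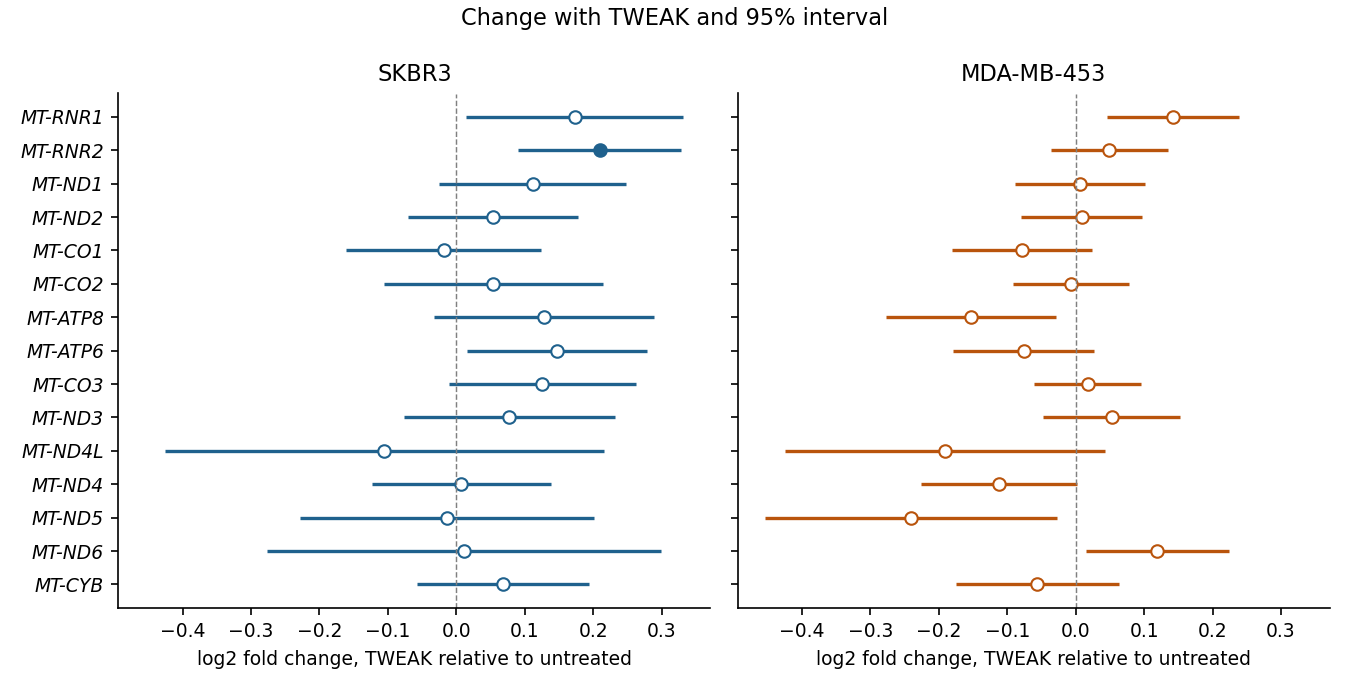
Fitted log2 fold change with TWEAK (x axis) and its 95% interval for the 13 mRNAs and 2 rRNAs in genome order (y axis), in SKBR3 (left) and MDA-MB-453 (right). Filled symbols passed the threshold and open ones did not. MT-RNR2 in SKBR3 is the only filled symbol, and most intervals cross 0.

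Whether TWEAK acted differently in the lines was tested as the interaction over all 12 libraries, as the change in MDA-MB-453 minus the change in SKBR3. It uses the same libraries as the comparisons within each line and is not separate evidence on either. Of the 13 mRNAs, 0 passed in edgeR and 0 in DESeq2, beside 3.37% of the 17201 genes tested, 1.01% higher and 2.36% lower, and 2 had an unadjusted p under 0.05. These were the ATP synthase mRNAs MT-ATP6, with a difference of -0.23 (SE 0.076, adjusted p = 0.170), and MT-ATP8, with -0.29 (SE 0.10, adjusted p = 0.214). MT-RNR2, called in SKBR3 and not in MDA-MB-453, had a difference of -0.17 (SE 0.063, 95% interval -0.30 to -0.033, adjusted p = 0.268), which did not pass. The median of the 13 mRNAs was -0.11, beside 0.0019 over all genes. The count moved with the filter and with single libraries. With no filter on low counts, 3 mRNAs passed, all lower (MT-ATP8, MT-ND5 and MT-ATP6), and the share over all genes of that fit is not given here. Without TWEAK replicate 2 of SKBR3, 2 mRNAs passed (MT-ATP8 lower, MT-ND6 higher), beside 6.54% of all genes. The count was also 2 without TWEAK replicate 2 of MDA-MB-453 (MT-ATP8 and MT-ATP6, both lower), beside 2.76%. Without both of these libraries, an alternative chosen after the data were seen, 7 passed, beside 11.9% of all genes, 5.5% higher and 6.36% lower. MT-ND5 (-0.50), MT-ATP8 (-0.42), MT-ND4L (-0.42), MT-ATP6 (-0.23), MT-ND4 (-0.20) and MT-CYB (-0.19) were then lower in MDA-MB-453 relative to SKBR3, and MT-ND6 was higher (0.32).

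With TWEAK, 4 genes of the nuclear lists passed in SKBR3 and 1 in MDA-MB-453, beside 10.4% and 1.49% of all genes tested. In SKBR3, TOP1MT, the mitochondrial topoisomerase, rose from 36.05 ± 1.01 to 45.1 ± 3.80 CPM (log2 fold change 0.32, SE 0.077, adjusted p = 0.0287), 1 of 11 genes of replication and the nucleoid. NRF1, a transcription factor for nuclear-encoded respiratory genes, rose from 27.5 ± 0.980 to 33.7 ± 2.14 CPM (0.29, SE 0.074, adjusted p = 0.0391), 1 of 7 biogenesis regulators tested. In MDA-MB-453 its levels were 23.5 ± 0.627 and 22.9 ± 1.15 CPM, and NRF1 passed the interaction test (-0.33, SE 0.090, adjusted p = 0.0676). Of 19 stress response genes in SKBR3, ATF5 rose (0.27, SE 0.076, adjusted p = 0.0586) and MTHFD2, an enzyme of mitochondrial folate metabolism, fell (-0.20, SE 0.053, adjusted p = 0.0520). In MDA-MB-453, the ribosomal protein gene MRPL36 rose (0.23, SE 0.048, adjusted p = 0.0301), 1 of 81. None of the 78 nuclear-encoded subunits of complexes I to V that were tested passed with TWEAK in either line. Neither did any of the 5 genes tested for transcription of the mitochondrial genome or the 21 for its RNA processing. In SKBR3, 0 of the 81 ribosomal protein genes tested passed. In MDA-MB-453, 0 of 11 genes of replication and the nucleoid, 0 of 8 biogenesis regulators and 0 of 18 stress response genes did. Of the 78 subunits, 1 had an unadjusted p under 0.05 in SKBR3 and 10 in MDA-MB-453. Over all genes, 3088 of 15661 and 1571 of 14929 did.

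The 22 tRNAs were almost absent from these poly-A libraries, and their counts allowed little comparison. All libraries together held 5165 tRNA counts, and 3 tRNAs took 62.6% of them: MT-TQ with 1245, MT-TL1 with 1136 and MT-TP with 850. MT-TS2 and MT-TL2 had 0 counts in all 12 libraries, which allows a level of up to 0.1253 CPM (3 counts) in the library with the smallest scaled size, and 14 tRNAs had at least 1 count in every library. The tRNAs encoded on the light strand held 65.1% of the counts although they are 8 of 22. The most counted tRNA genes are shown on the gene strand:
MT-TQ (chrM:4329-4400, minus strand): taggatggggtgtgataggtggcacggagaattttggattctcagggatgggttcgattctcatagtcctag
MT-TL1 (chrM:3230-3304, plus strand): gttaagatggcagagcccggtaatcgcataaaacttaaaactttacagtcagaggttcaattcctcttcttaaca
MT-TP (chrM:15956-16023, minus strand): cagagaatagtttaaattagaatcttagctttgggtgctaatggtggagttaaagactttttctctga
MT-TL1 lies between MT-RNR2 and MT-ND1, and MT-TQ and MT-TP lie opposite heavy-strand precursor sequence. The study's methods name a directional RNA library kit and the labels a DNA library kit, and the strand setting of the counting is not given in the sources used here, so reads of a tRNA, of its precursor and of the opposite strand cannot be told apart.

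With TWEAK, 0 of the 8 tRNAs tested in SKBR3 and 0 of the 10 tested in MDA-MB-453 passed the threshold in edgeR, with 0 and 1 at an unadjusted p under 0.05. MT-TL1 had 91, 73 and 74 counts in untreated and 92, 90 and 95 in TWEAK-treated SKBR3 (log2 fold change 0.27, SE 0.13). Between the untreated lines, 4 of 10 tRNAs tested passed, beside the 87.2% of all genes. MT-TM and MT-TI were lower in SKBR3 (log2 fold change -1.67, SE 0.35, and -0.70, SE 0.39, adjusted p = 0.0966 for the latter), while MT-TE and MT-TP were higher (0.70, SE 0.20, and 0.39, SE 0.16). The called tRNAs thus lay in both directions, at 4 to 89 counts per untreated library for these 4.

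The annotated nuclear copies of mitochondrial genes, 404 in all, held few counts beside the mitochondrial genes, and 3 of them held 92.4% of these. MTATP6P1 had 12735, 10836 and 11556 counts in untreated SKBR3 and 20129, 21841 and 22788 in untreated MDA-MB-453. Its counts per 100 counts of MT-ATP6 were 14.8 ± 0.307 in untreated SKBR3, 14.8 ± 0.242 in treated SKBR3, 14.5 ± 0.466 in untreated and 14.7 ± 0.251 in treated MDA-MB-453. The copy thus kept nearly the same ratio to the mitochondrial gene in all 4 groups. Its log2 fold changes were -0.78 (SE 0.041) between the lines and 0.14 (SE 0.061) with TWEAK in SKBR3, beside -0.81 and 0.15 for MT-ATP6. MTCO1P12 (chr1:631074-632616) and MTND4P12 (chr5:134926660-134928036, minus strand) differed between the lines by -1.21 (SE 0.050) and -0.26 (SE 0.062), beside -1.25 for MT-CO1 and -0.27 for MT-ND4. Whether these counts came from the nuclear copies or from the mitochondrial genes was not tested. Counts on all copies came to 1.513 to 1.545 per 100 counts of the 13 mRNAs in untreated SKBR3 and 1.55 to 1.63 in untreated MDA-MB-453. With TWEAK they came to 1.552 to 1.725 in SKBR3 and 1.58 to 1.63 in MDA-MB-453. In SKBR3 every treated library thus lay above every untreated one (exact permutation p = 0.1, the smallest possible).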

How the data were processed

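RNA-seq counts of genes were taken as deposited, with 1 column per library for 12 libraries. The authors trimmed adaptors (Trimmomatic), aligned the reads to hg38 (STAR) and made the gene counts with featureCounts. Versions, strand setting and the treatment of reads that map to several places or to overlapping genes are not given in the sources used here. The identifiers were matched to GENCODE release 44, which named 62625 of 62696, and 71 were not matched. Groups were taken from the sample titles.

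Genes were tested with edgeR 4.0.16 in R 4.3.3 (filterByExpr, TMM scaling, quasi-likelihood test, two-sided), with Benjamini-Hochberg adjustment over all genes tested and a threshold of 0.1, the false discovery rate of the study. DESeq2 1.42.0, which the study used, was an alternative. CPM values are counts scaled by TMM library sizes over the 12 libraries, and CPM per kilobase divides them by gene length. Shares of counts were compared with exact permutation tests, whose smallest p is 0.1 with 3 against 3 libraries. Standard errors and 95% intervals of log2 fold changes come from the edgeR fit. The code was tested on simulated data.

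The mitochondrial genes and the lists of nuclear genes were chosen with earlier results of these data known. All mRNAs and rRNAs are named. Of each list, up to 2 of the highest and 2 of the lowest fold changes among called genes with a mean of at least 1 CPM are named, and the 3 nuclear copies with the most counts. Other alternatives were size factors of DESeq2 in edgeR, scaling without mitochondrial genes, a minimum of 10 counts per library or no minimum, a threshold of 0.05, all 12 libraries in 1 fit, the replicate number as a block and leaving out each library. Leaving out TWEAK replicate 2 of both lines together was added after seeing the data. Protein sequences are not shown.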

Additional observations from a re-analysis of the deposited data

How the results depend on the processing

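Of 1077 alternative values for the shares, the medians, the counts of called mRNAs and the 13 mRNAs and 2 rRNAs, 997 were classed as the same. For single genes this meant the same direction and side of the threshold. For a share or median it meant a shift within the pooled SD of the replicates, even where the sign differed. A count was the same within a fixed ratio, or where a count of 0 stayed at 0. The 13 mRNAs were called lower in SKBR3 than in MDA-MB-453 under every alternative run. For TWEAK, the count of called mRNAs in SKBR3 was 0 in edgeR, 1 with all 12 libraries in 1 fit and 0 to 3 when single libraries were left out. In MDA-MB-453 it was 0, 4 with no filter on low counts and 0 to 8 when single libraries were left out. In the interaction it was 0, 3 with no filter, 0 to 2 without single libraries and 7 without both TWEAK replicates numbered 2. The share of all genes called is not given here for the interaction with no filter. Nor is it given for the SKBR3 change in the fit of all 12 libraries, so these counts have no background beside them. The median of the 13 mRNAs in SKBR3 ranged from 0.052 to 0.10 without single libraries, that in MDA-MB-453 from -0.11 to 0.0017 and that of the interaction from -0.16 to -0.073. The MT-RNR2 change in SKBR3 ranged from 0.19 to 0.23. Changes near 0 switched sign when single libraries were left out. In SKBR3 the log2 fold changes then ranged from -0.080 to 0.019 for MT-CO1, -0.023 to 0.10 for MT-CO2, -0.031 to 0.031 for MT-ND4, -0.28 to 0.082 for MT-ND4L, -0.13 to 0.10 for MT-ND5 and -0.19 to 0.14 for MT-ND6. In MDA-MB-453 they ranged from -0.044 to 0.033 for MT-ND1, -0.033 to 0.035 for MT-ND2, -0.041 to 0.033 for MT-CO2, -0.0065 to 0.048 for MT-CO3 and -0.11 to 0.0017 for MT-CYB. In the interaction they ranged from -0.11 to 0.028 for MT-CO2, -0.076 to 0.061 for MT-ND3, -0.26 to 0.086 for MT-ND4L, -0.024 to 0.32 for MT-ND6 and -0.080 to 0.054 for MT-RNR1. Without both TWEAK replicates numbered 2, the interaction was 0.034 for MT-CO2, 0.073 for MT-ND3 and 0.093 for MT-RNR1. The causes of these changes were not tested. The tRNAs held few counts, and each group had 3 libraries.

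The replicate numbers of treated and untreated libraries were not taken as pairs in the tests reported first, since no source ties a number to a day and the correlations of deviations from the group means were 0.11, -0.097 and -0.16 for SKBR3 replicates 1 to 3 and 0.086, 0.083 and 0.025 for MDA-MB-453. Each MDA-MB-453 sample correlated best with its own number, and in SKBR3 those numbered 1 did. With the replicate number as a block, 0 mRNAs were called in SKBR3, 5 in MDA-MB-453 (MT-ND6 higher, MT-ND5, MT-ATP8, MT-ND4L and MT-ND4 lower, beside 5.99% of all genes), 13 between the lines and 0 in the interaction. The MT-RNR2 change in SKBR3 was then 0.21 (edgeR adjusted p = 0.156), which did not pass, and that of MT-ND6 -0.013. MT-RNR1 in MDA-MB-453 passed under the block, at 0.14 (edgeR adjusted p = 0.00264).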
